A study of Solanum lycopersicum with 10 samples.

Results

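The mesocarp is the fleshy wall of the tomato fruit, beneath the outer skin or exocarp. Red ripe mesocarp was set against leaves with the 2 mesocarp and the 2 leaf libraries, 4 of the 10 libraries of an RNA-seq series on tomato (Solanum lycopersicum) cv. Ailsa Craig, and these libraries were chosen by tissue alone. Red ripe fruits were taken 7 days post-breaker, the breaker stage being the first visible change of colour. The leaves were pooled from both fruit stages, so leaf stages cannot be told apart. Mature green mesocarp (30 days post-anthesis) and red ripe exocarp, with 2 libraries each, served to show where red ripe mesocarp differed from its nearest fruit tissues. All 10 libraries, also those of mature green exocarp, shared the filter, the scaling and the estimate of the spread behind the tests. No tissue carried a transgene or a treatment in these libraries. Each tissue had 2 biological replicates, and the labels do not say whether they came from separate plants.

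During ripening, the chloroplasts of the fruit wall turn into chromoplasts, chlorophyll is lost, carotenoids such as lycopene accumulate, cell walls loosen, and sugars and aroma compounds build up. A leaf keeps its chloroplasts and fixes carbon, and much of its mRNA codes for the photosynthetic apparatus. A comparison of both tissues therefore spans organ and ripening stage together, which cannot be told apart here. In bulk tissue, fewer cells of a type and less RNA per cell cannot be told apart either.

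The count tables list genes by Solyc identifier without names, and genes are named here only where the study pairs a name with an identifier. This covers 13 genes, namely 12 candidates for exocarp-preferential expression and SlACTIN, its reference gene for RT-qPCR. Ripening and photosynthesis markers were therefore not used to check the tissue labels.

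The red ripe mesocarp libraries held 45637676 and 34818289 counts, and the leaf libraries 34314992 and 32819863. At these totals, the 95% Wilson interval of a share of counts is at most 0.0342 percentage points wide, which covers counting error only. Replicates lay close together. In CPM (each count over its library total, scaled by TMM), 3 of the 10695 genes that averaged 10 or more differed by 2-fold or more between the red ripe mesocarp libraries, and 26 of 12038 between the leaf libraries. The replicates still differed by more than sampling noise, as the chi-square over its degrees of freedom was 6.0 in red ripe mesocarp and 4.59 in leaf, so none was counted as a repeat of another.

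Red ripe mesocarp and leaf differed in most of the genes that could be tested. Of 22801 genes, 17473 (76.6%) passed an adjusted p-value under 0.05 in the edgeR quasi-likelihood test. In red ripe mesocarp, 7984 genes (35.0%) were higher and 9489 (41.6%) were lower than in leaf. All genes tested had a median log2 fold change of -0.18. With so many calls, a call alone says little about a gene, and the size of its difference says more. P-values here rest on the spread between the 2 libraries of a tissue, pooled over all 5 tissues and not taken from the compared tissues alone. The chi-square over its degrees of freedom was 5.46 in mature green mesocarp, 22.3 in red ripe exocarp and 69.7 in mature green exocarp.

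Small and large differences were split unevenly between the directions. Of the genes higher in red ripe mesocarp, 3071 differed by less than 1 on the log2 scale and 2603 by 1 to 2. Of the genes lower in red ripe mesocarp, 1667 differed by less than 1 and 1758 by 1 to 2. Large differences were mostly downward. By the fitted fold change, 2310 genes were at least 4-fold higher and 6064 at least 4-fold lower in red ripe mesocarp. At least 32-fold, 781 were higher and 3021 lower. Within these sets, 435 of the 781 had no count in either leaf library and 1648 of the 3021 had no count in either red ripe mesocarp library. The fitted fold change of such genes depends on the prior count of the fit, so it only places them in the class.

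**Figure D1:**
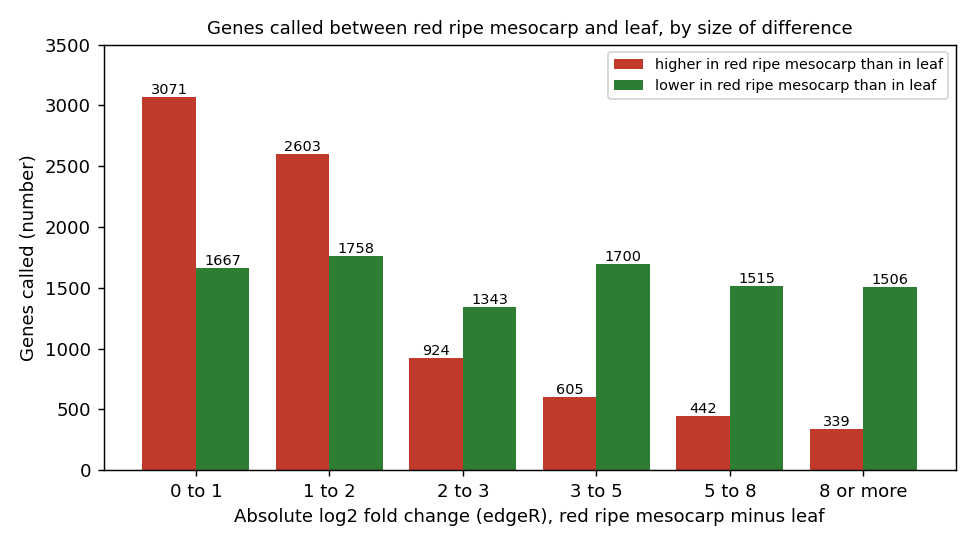
Number of genes called at an adjusted p-value under 0.05 (vertical axis) by absolute log2 fold change of red ripe mesocarp minus leaf (horizontal axis), with red bars for genes higher and green bars for genes lower in red ripe mesocarp. Below a log2 fold change of 2 the higher genes are more numerous (3071 and 2603), and from 2 upward the lower genes are (1343, 1700, 1515 and 1506).

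These genes carried most of the mRNA of each tissue. Genes higher in red ripe mesocarp took 78.4% and 78.1% of the counts in the red ripe mesocarp libraries, against 20.9% and 20.9% in the leaf libraries. Genes lower in red ripe mesocarp took 12.6% and 12.7% of the counts in red ripe mesocarp, against 70.1% and 70.1% in leaf. The 781 genes at least 32-fold higher as fitted held 25.8% and 25.9% of red ripe mesocarp counts, against 0.147% and 0.148% of leaf counts. The 3021 genes at least 32-fold lower as fitted held 0.2% and 0.197% of red ripe mesocarp counts, against 31.8% and 31.9% of leaf counts. The groups were defined by the same libraries, so these shares describe the calls and do not test them.

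The same groups were then read in the other fruit tissues, whose libraries were not in this contrast but shared the filter, the scaling and the estimate of the spread. The genes higher in red ripe mesocarp than in leaf took 53.9% and 53.8% of the counts of mature green mesocarp, and 72.2% and 72.7% of those of red ripe exocarp. The genes lower in red ripe mesocarp took 34% and 34% of the counts of mature green mesocarp, and 18.2% and 17.7% of those of red ripe exocarp. Red ripe exocarp thus lay nearer to red ripe mesocarp in these shares than mature green mesocarp did.

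**Figure D2:**
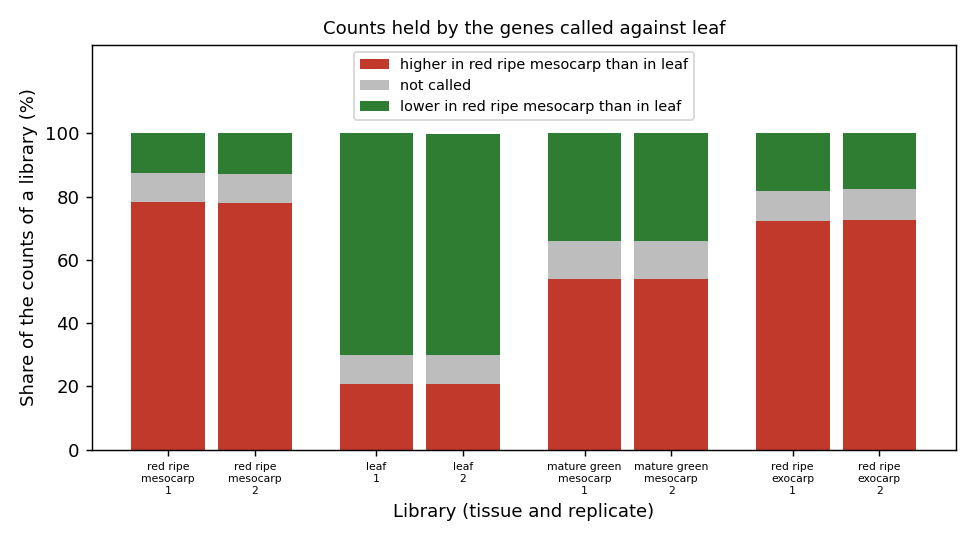
Share of the counts of each library in percent (vertical axis), for 2 libraries each of red ripe mesocarp, leaf, mature green mesocarp and red ripe exocarp, held by genes higher (red), not called (grey) or lower (green) in red ripe mesocarp than in leaf. The genes called higher take 78.4% and 78.1% in red ripe mesocarp, 20.9% in both leaf libraries, and intermediate shares in the other fruit tissues.

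The most abundant transcripts of the tissues were largely different genes. Ranked by mean FPKM (counts scaled to the length of the transcript and the size of the library), none of the 10 most abundant genes of red ripe mesocarp was among the 10 most abundant of leaf, and the lists of 100 shared 7 genes, 7% of each. The leading gene of red ripe mesocarp stood at a mean of 24000 FPKM, against 194 FPKM in leaf. The leading gene of leaf stood at 2.52 FPKM in red ripe mesocarp, against 9890 FPKM in leaf. The 100 leading genes of red ripe mesocarp took 25.9% and 25.8% of its counts, against 1.80% and 1.82% of leaf counts. The 100 leading genes of leaf took 1.97% and 1.9% of red ripe mesocarp counts, against 27.8% and 27.9% of leaf counts. By counts, which also depend on transcript length, the 10 leading genes took 11.95% in both red ripe mesocarp libraries, against 6.92% in both leaf libraries. The spread beyond the leading genes was alike, as the most abundant 726 and 733 genes made up 50% of the counts in red ripe mesocarp, against 674 and 670 genes in leaf.

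Fewer genes were detected in red ripe mesocarp. At least 1 CPM in both libraries was reached by 15825 genes in red ripe mesocarp, against 18331 in leaf, and 14727 genes reached it in all 4 libraries. The same tilt was seen among genes without any count in the other tissue. With at least 10 CPM in both red ripe mesocarp libraries, 74 genes had no leaf count, and their median level was 56.7 CPM in red ripe mesocarp. With at least 10 CPM in both leaf libraries, 262 genes had no red ripe mesocarp count, and their median level was 21.9 CPM in leaf. A level of 3 counts, 0.0824 CPM in red ripe mesocarp and 0.0987 CPM in leaf as the mean over the libraries, was taken as the least that could be detected.

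Those genes also differed in the other fruit tissues. Of the 74 genes without a leaf count, 52 reached 10 CPM in both libraries of red ripe exocarp and 19 in both libraries of mature green mesocarp. Of all 35288 genes, 10721 averaged 10 CPM or more in red ripe exocarp and 11539 in mature green mesocarp. Of the 262 genes without a red ripe mesocarp count, none reached 10 CPM in both libraries of red ripe exocarp and 156 had no count there at all, while 21 reached 10 CPM in mature green mesocarp and 109 had no count there.

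Among genes without a name, the 2 with the largest log2 fold change upward were Solyc08g066240.3 and Solyc08g005770.3. Solyc08g066240.3 had 318526 and 257922 counts (3545 and 3771 FPKM) in red ripe mesocarp, against 0 counts in both leaf libraries. It was at least 79110-fold higher in red ripe mesocarp, taking 3 counts per leaf library as the floor, with an adjusted p of 3.785e-05 in edgeR. Mature green mesocarp had 26 and 454 counts of it, far apart for replicates, and red ripe exocarp 206792 and 214052. Solyc08g005770.3 had 125320 and 121811 counts (1296 and 1655 FPKM) in red ripe mesocarp, against 0 counts in both leaf libraries, which puts it at least 34320-fold higher (adjusted p = 4.371e-06 in edgeR). Both genes were thus among the 30 most abundant of red ripe mesocarp by FPKM and without a count in leaf. Neither passed the test between red ripe mesocarp and red ripe exocarp, with log2 fold changes of 0.37 ± 0.76 and -0.82 ± 0.50 (SE). That does not show equal levels. The libraries did not overlap, which is weak evidence of a difference with 2 libraries per tissue. Solyc08g066240.3 had 7619 and 7995 CPM in red ripe mesocarp, against 6087 and 6015 in red ripe exocarp. Solyc08g005770.3 had 2997 and 3776 CPM, against 6226 and 5747. The SE pools all tissues, also mature green mesocarp, with 177 and 737 counts of Solyc08g005770.3.

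The 2 with the largest change downward were Solyc02g071030.2 and Solyc06g066640.3. Solyc02g071030.2 had 0 counts in both red ripe mesocarp libraries, against 32312 and 21421 counts (1084 and 754.4 FPKM) in leaf. It was at least 10680-fold lower in red ripe mesocarp (adjusted p = 0.000185 in edgeR). Solyc06g066640.3 had 0 counts in both red ripe mesocarp libraries, against 16577 and 16188 counts (582.4 and 597.0 FPKM) in leaf, at least 6540-fold lower (adjusted p = 7.097e-08 in edgeR). Both were at 0 counts in red ripe exocarp as well. Mature green mesocarp had 208 and 117 counts of Solyc02g071030.2, and 193 and 247 counts of Solyc06g066640.3.

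The share of genes called was larger at higher levels. Under a mean of 1 CPM over both tissues, 52.7% of 3967 genes were called, and from 1000 CPM upward 99.1% of 112 were. The direction moved with level too. From 1 to 10 CPM, 1582 genes were higher and 3309 lower in red ripe mesocarp. From 10 to 100 CPM, 4797 were higher and 3812 lower, and from 100 to 1000 CPM, 1047 were higher and 726 lower. From 1000 CPM upward, 43 were higher and 68 lower, with a median absolute log2 fold change of 6.90. The median SE of the log2 fold change was 1.09 under 1 CPM and 0.12 from 10 to 100 CPM, so small differences were more readily detected at 10 to 100 CPM than under 1 CPM.

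**Figure D3:**
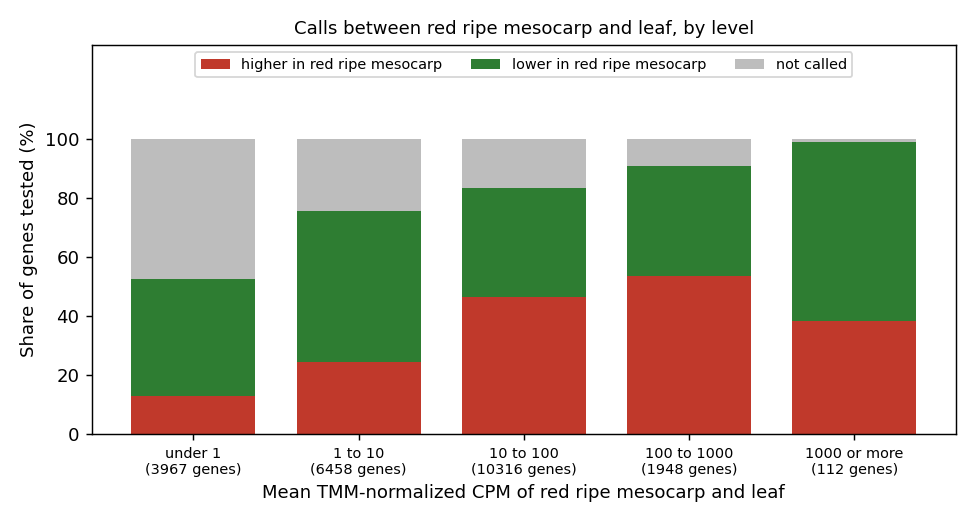
Share of genes tested in percent (vertical axis) that were higher (red), lower (green) or not called (grey) in red ripe mesocarp against leaf, by mean TMM-normalized CPM of both tissues (horizontal axis). The share not called shrinks with level, from 1878 of 3967 genes under 1 CPM to 1 of 112 genes at 1000 CPM or more.

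Loci outside the Solyc annotation, added by the processing of the authors, made up a small part of the mRNA. Of 820 such loci tested, 197 (24.0%) were higher and 326 (39.8%) lower in red ripe mesocarp, against 35.4% and 41.7% of the 21981 Solyc genes tested. They took 0.578% and 0.602% of the counts in red ripe mesocarp, against 0.603% and 0.581% in leaf. Their median level was 0.497 FPKM in red ripe mesocarp and 0.818 FPKM in leaf, against 5.49 and 7.27 FPKM for the Solyc genes. As the share of genes called was larger at higher levels, these shares do not compare genes of like level.

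The 12 exocarp candidates were low in both tissues. The study chose them on these libraries, for a leaf FPKM below 50 and for exocarp levels at least 10 times those of mesocarp at both stages, so their low levels and their distance from exocarp follow from that choice and are given as a description. Their summed level was 26.9 and 20.98 FPKM in red ripe mesocarp, against 45.2 and 48.7 FPKM in leaf, and 1865 and 1181 FPKM in red ripe exocarp. Against leaf, 1 of the 12 was higher (35.0% of all genes tested were), 8 were lower (41.6% of all genes tested were) and 3 were not called. Their median log2 fold change was -1.34, beside -0.18 over all genes tested.

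SlPR10 (Solyc09g090980.3), which encodes a pathogenesis-related protein of class 10, was the most abundant of them. It had 23.06 and 16.88 FPKM in red ripe mesocarp, against 32.69 and 35.35 FPKM in leaf. Both mesocarp libraries lay below both leaf libraries, and the replicates of mesocarp were further apart than those of leaf. The log2 fold change was -0.77 ± 0.23 (SE, adjusted p = 0.0149 in edgeR), and the call was lost without red ripe mesocarp replicate 2 (-0.52, adjusted p = 0.129) or without leaf replicate 2 (-0.67, adjusted p = 0.0795). PR10 genes form a multigene family, and how reads that fit several members were counted is not given in the sources used here.

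SlABCG10 (Solyc04g070970.4), an ABC transporter of the G subfamily, was the only candidate called higher in red ripe mesocarp. It had 31 and 24 counts (0.249 and 0.252 FPKM) in red ripe mesocarp, against 0 counts in both leaf libraries. The difference was at least 7.53-fold (adjusted p = 0.00846 in edgeR), at a level that is very low in either tissue. In limma on log2(FPKM + 1) it was not called (0.32, adjusted p = 0.320). There the added 1 exceeds its level in both tissues and shrinks the difference, so limma cannot decide on this gene.

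The clearest lower levels were those of SlHH3, SlBCAD and SlKIN5D. SlHH3 (Solyc05g032680.4), annotated as a probable hydrolase of 3-hydroxyisobutyryl-CoA, had 0.808 and 1.162 FPKM in red ripe mesocarp, against 6.269 and 6.190 FPKM in leaf. Its log2 fold change was -2.67 ± 0.20 (SE, adjusted p = 3.547e-06 in edgeR). SlBCAD (Solyc06g059840.4), annotated as a subunit of the branched-chain alpha-keto acid dehydrogenase, had 6 and 0 counts in red ripe mesocarp, against 44 and 56 in leaf. Its log2 fold change was -4.30 ± 0.52 (SE, adjusted p = 7.778e-05 in edgeR), and without red ripe mesocarp replicate 1 the whole tissue is at 0, so the size of this difference rests on 6 counts. Without red ripe mesocarp replicate 2 it was -3.45. SlKIN5D (Solyc09g007030.3), a kinesin-like motor protein, had 17 and 17 counts in red ripe mesocarp, against 56 and 48 in leaf, a log2 fold change of -1.88 ± 0.26 (SE, adjusted p = 0.000175 in edgeR). These 3 genes stayed called against leaf under every alternative tried.

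The other lower calls rested on few counts and on single libraries. SlSTK (Solyc08g061250.3), annotated as a serine-threonine kinase, had 8 and 11 counts in red ripe mesocarp, against 27 and 28 in leaf (log2 fold change -1.80 ± 0.52, SE), and was not called without red ripe mesocarp replicate 1 (adjusted p = 0.096) or leaf replicate 2 (adjusted p = 0.0545 in edgeR). SlTSI1 (Solyc09g090990.2), the TSI-1 protein gene, had 14 and 3 counts in red ripe mesocarp, against 25 and 21 in leaf (-1.73 ± 0.50, SE), and was not called without red ripe mesocarp replicate 2 (-1.12, adjusted p = 0.0535 in edgeR) or leaf replicate 1 (adjusted p = 0.0528), while without red ripe mesocarp replicate 1 it stood at -2.97. SlWSD1 (Solyc01g011430.4), an O-acyltransferase similar to the wax ester synthase WSD1 of Arabidopsis, had 6 and 16 counts in red ripe mesocarp, against 27 and 31 in leaf (-1.64 ± 0.47, SE), and was not called without red ripe mesocarp replicate 1 (-0.94, adjusted p = 0.0588 in edgeR) or leaf replicate 2 (adjusted p = 0.0617), while without red ripe mesocarp replicate 2 it stood at -2.66. SlIQM2 (Solyc01g005800.3), an IQ domain protein, had 18 and 12 counts in red ripe mesocarp, against 35 and 16 in leaf. Its log2 fold change of -1.04 ± 0.40 (SE, adjusted p = 0.0418 in edgeR) was not called with the replicate number as a block (-1.04, adjusted p = 0.0531) or with the compared tissues only (-1.01, adjusted p = 0.0845). Nor was it called in limma on log2(FPKM + 1) (-0.18, adjusted p = 0.221), where the added 1 exceeds its levels and shrinks the difference. It was also not called without red ripe mesocarp replicate 1 (-1.15, adjusted p = 0.1 in edgeR), red ripe mesocarp replicate 2 (-0.91, adjusted p = 0.151) or leaf replicate 1 (-0.41, adjusted p = 0.425). The lower calls of SlPR10, SlSTK, SlTSI1, SlWSD1 and SlIQM2 were thus lost when some single library was left out. Such a fit leaves a tissue with a lone library, and fewer genes were called lower over all genes too. The share of all lower calls lost in this way was not taken, so these losses do not set the candidates apart.

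The remaining candidates were not called. SlSNL6 (Solyc06g061280.3), a cinnamoyl-CoA reductase-like gene, had 1.253 and 1.325 FPKM in red ripe mesocarp, against 2.030 and 2.934 FPKM in leaf, a log2 fold change of -0.94 ± 0.57 (SE, adjusted p = 0.164 in edgeR). SlLECRK4 (Solyc09g075910.1), annotated as a threonine-protein kinase, had 0.598 and 0.577 FPKM in red ripe mesocarp, against 0.939 and 0.908 FPKM in leaf, a log2 fold change of -0.65 ± 0.53 (SE, adjusted p = 0.288 in edgeR). The libraries of these genes did not overlap between the tissues, which is weak evidence with 2 libraries per tissue. Both genes were called in the edgeR fit of the compared tissues only (adjusted p = 0.00714 for SlSNL6 and 0.0415 for SlLECRK4). The main fit also takes in mature green exocarp, whose replicates were far apart. They had 1391 and 3504 counts of SlSNL6, and 998 and 3050 of SlLECRK4. SlSNL6 was also called by DESeq2 (-1.07, adjusted p = 0.0399). SlFP (Solyc01g105620.4), annotated as a RING-type finger protein, had 9 and 5 counts in red ripe mesocarp, against 5 and 3 in leaf. Its log2 fold change was 0.51 ± 0.99 (SE, adjusted p = 0.656 in edgeR), and no difference was detectable at this depth.

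SlACTIN (Solyc03g078400.3), an actin gene that served as the reference for RT-qPCR, was not level across the tissues. It had 308.9 and 300.5 FPKM in red ripe mesocarp, against 141.5 and 145.1 FPKM in leaf. The log2 fold change was 1.08 ± 0.08 (SE, adjusted p = 3.983e-06 in edgeR), 2.12-fold higher in red ripe mesocarp. It was higher under every scaling tried. Against the other fruit tissues, red ripe mesocarp was lower than mature green mesocarp with 756.1 and 691.1 FPKM (log2 fold change -0.82 ± 0.08, SE, adjusted p = 3.86e-05 in edgeR) and higher than red ripe exocarp with 191.6 and 177.8 FPKM (0.71 ± 0.08, SE, adjusted p = 0.00028 in edgeR). Among these tissues, its order was therefore mature green mesocarp, red ripe mesocarp, red ripe exocarp and leaf. Red ripe exocarp was also above leaf (0.38 ± 0.08, SE, adjusted p = 0.00269 in edgeR), so that each neighbour in this order differed by more than the spread of the replicates. Mature green exocarp, which was not tested here, had 484.9 and 445.5 FPKM, between mature green and red ripe mesocarp.

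**Figure D4:**
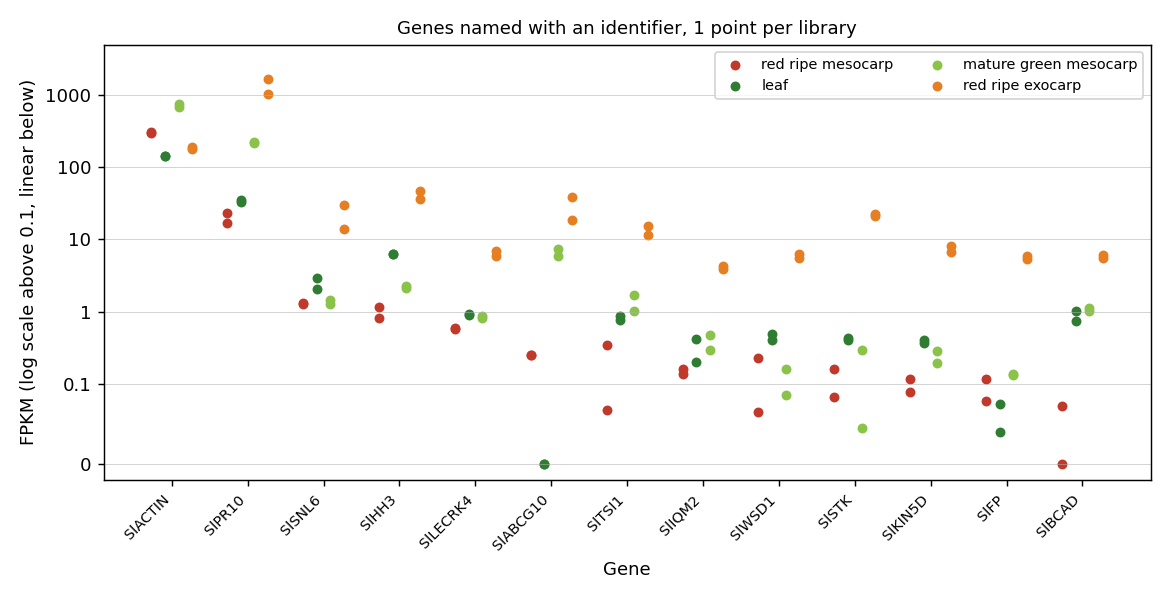
FPKM per library (vertical axis, logarithmic above 0.1 and linear below) of the 13 genes named with an identifier (horizontal axis, by mean level in red ripe mesocarp), with 1 point per library for red ripe mesocarp, leaf, mature green mesocarp and red ripe exocarp. SlACTIN lies at 308.9 and 300.5 FPKM in red ripe mesocarp, above leaf, while most of the candidates lie below their leaf values.

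Where red ripe mesocarp stood apart from its nearest tissues was tested directly, since differences from leaf share the same leaf libraries. Against mature green mesocarp, 6441 genes (28.2%) were higher and 7256 (31.8%) lower in red ripe mesocarp. By the fitted fold change, 473 and 1215 of them were at least 32-fold apart. By total counts in place of TMM, 27.8% of the calls of this comparison were upward, against 47.0% with TMM, as the median log2 fold change moved to -0.41 with total counts, against -0.02 with TMM. Against red ripe exocarp, 4412 genes (19.4%) were higher and 4123 (18.1%) lower in red ripe mesocarp, with 698 and 526 at least 32-fold as fitted. Without red ripe mesocarp replicate 1, the genes lower than in red ripe exocarp numbered 2739.

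Of the 12 candidates, 6 were lower in red ripe than in mature green mesocarp, 6 were not called and none was higher, beside 31.8% of all genes tested lower and 28.2% higher. SlPR10 was at 23.06 and 16.88 FPKM in red ripe mesocarp, against 222.8 and 217.3 FPKM in mature green mesocarp (log2 fold change -3.03 ± 0.24, SE, adjusted p = 1.112e-05 in edgeR). SlABCG10 was at 0.249 and 0.252 FPKM in red ripe mesocarp, against 7.262 and 5.898 FPKM in mature green mesocarp (-4.28 ± 0.43, SE, adjusted p = 9.091e-05 in edgeR). SlBCAD was at 0.072 and 0 FPKM in red ripe mesocarp, against 1.025 and 1.135 FPKM in mature green mesocarp (-4.17 ± 0.51, SE, adjusted p = 0.000147 in edgeR). It stood at -3.35 without red ripe mesocarp replicate 2, and without red ripe mesocarp replicate 1 that tissue was at 0. SlTSI1 was at 0.344 and 0.067 FPKM in red ripe mesocarp, against 1.713 and 1.023 FPKM in mature green mesocarp (-2.07 ± 0.48, SE, adjusted p = 0.00524 in edgeR). It stayed called with each library left out, at -3.31 without red ripe mesocarp replicate 1 and -1.48 without red ripe mesocarp replicate 2. Some of these falls were seen in exocarp too, where the change was not tested. From mature green to red ripe exocarp, SlPR10 went from 7523 and 8207 to 1692 and 1029 FPKM. SlABCG10 went from 287.7 and 282.0 to 38.89 and 18.55 FPKM, and SlBCAD from 67.27 and 54.55 to 5.443 and 6.02 FPKM. SlTSI1 stayed alike, at 14.0 and 13.01 against 15.18 and 11.44 FPKM. SlHH3 and SlKIN5D were lower in red ripe mesocarp by smaller margins, with log2 fold changes of -0.74 ± 0.22 and -0.78 ± 0.28 (SE). The call of SlHH3 was lost without red ripe mesocarp replicate 1 (-0.49, adjusted p = 0.128 in edgeR) or mature green mesocarp replicate 1 (-0.68, adjusted p = 0.0809). That of SlKIN5D was lost without red ripe mesocarp replicate 1 (-0.59, adjusted p = 0.202 in edgeR), red ripe mesocarp replicate 2 (-0.95, adjusted p = 0.0554) or mature green mesocarp replicate 2 (-0.46, adjusted p = 0.323).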

How the data were processed

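Poly(A) mRNA of 5 tissues was sequenced in 2 libraries each, and the sequencing company processed the reads. The authors deposited raw counts per gene and FPKM of the same 35288 genes. HISAT2 is named in the submitters' processing notes, without a version. The counting tool, genome build, annotation version, use of strand and treatment of reads that fit several genes are not given in the sources used here, so overlapping genes and close copies are uncertain.

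The fit (edgeR 4.0.16, R 4.3.3) held all 10 libraries, after filterByExpr by tissue and TMM scaling. Contrasts were taken by the quasi-likelihood F test, with Benjamini-Hochberg adjustment over 22801 genes (adjusted p under 0.05). The SE came from the F statistic and the log2 fold change. The test was tried on simulated data. FPKM gave levels between genes. Alternatives were DESeq2 1.42.0, its size factors, total counts, no filter, the compared tissues only, a replicate block, a stricter threshold, each library left out, and limma 3.58.1 on log2(FPKM + 1).

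No identifier matched the 41476 genes of the RefSeq table. Named genes are those the study pairs with an identifier, plus, per direction, the 2 identifiers with the largest log2 fold change among called genes that averaged 10 CPM or more where higher and whose libraries did not overlap. SlACTIN's identifier is printed there with a letter missing. Gene lists and cell type markers planned by identifier were not used, since no source here pairs those identifiers with names. The genes and lists were chosen with earlier results of these data known.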

Additional observations from a re-analysis of the deposited data

Results flagged for a closer look

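SlPR10 was flagged because it was called in opposite directions against the shared leaf libraries in the mesocarp of both stages. The rule also asked that the difference itself passed the test, so this pass is part of the choice. SlPR10 had 23.06 and 16.88 FPKM in red ripe mesocarp and 222.8 and 217.3 FPKM in mature green mesocarp, against 32.69 and 35.35 FPKM in leaf. Exocarp also held less of it when red ripe, with 1692 and 1029 FPKM, against 7523 and 8207 FPKM when mature green. The log2 fold change against leaf was -0.77 ± 0.23 (SE) in red ripe mesocarp and 2.26 ± 0.24 (SE) in mature green mesocarp, and that of red ripe minus mature green mesocarp was -3.03 ± 0.24 (SE, adjusted p = 1.112e-05 in edgeR). The call of red ripe mesocarp against leaf was lost, at log2 fold changes of -0.52 and -0.67, without red ripe mesocarp replicate 2 or leaf replicate 2, whereas red ripe minus mature green mesocarp stayed between -3.29 and -2.80.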

How the results depend on the processing

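The counts of genes called were within 1.5 times of their values under DESeq2, its size factors, no filter and the compared tissues only in the 3 comparisons, and under limma on FPKM in the comparison with leaf, where alone it was run, but not under a stricter threshold. With an adjusted p under 0.01 and a log2 fold change of at least 1, 11568 genes were called against leaf (4572 higher and 6996 lower). Against mature green mesocarp 7018 were called (2551 higher and 4467 lower), and against red ripe exocarp 3262 (1701 higher and 1561 lower). Of these counts, only the 6996 lower than in leaf stayed within 1.5 times of the main value. By total counts, 3839 genes were higher than in mature green mesocarp. With 1 library left out, which leaves its tissue with a lone library assumed to vary like the others, the calls against leaf ran from 15362 to 15956, those against mature green mesocarp from 11434 to 11763, those against red ripe exocarp from 5836 to 7080, and the genes lower than in red ripe exocarp from 2739 to 3331. With the replicate block, 17040, 13213 and 7918 genes were called in these comparisons. Same-numbered libraries did not deviate together over genes (correlations of 0.0075, 0.0025 and -0.048). With 2 libraries per tissue, this cannot tell whether they were paired. DESeq2's size factors moved the median log2 fold change against leaf to -0.31. The median of the 12 candidates was -0.34 as a log2 ratio of mean FPKM + 1, where the added 1 shrinks differences at low levels. The 17 named genes and identifiers kept their direction under all 11 alternatives that gave a value, and 9 kept their call. Genes with under about 10 counts per library, such as SlFP, allow no firm statement at this depth.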
